A study of Mus musculus with 8 samples.

Results

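The genes described here encode the enzymes of de novo lipogenesis, the synthesis of fatty acids from acetyl-CoA, and the transcription factors that drive them. They were chosen by name, and all 10 were among the 22173 genes of the deposited table: Acly, Acaca, Acacb, Fasn, Elovl6, Scd1, Scd2, Thrsp, Srebf1 and Mlxipl. Each was set beside Adipoq, which encodes adiponectin, a hormone secreted by fat cells, as a measure of the fat content of each sample. Transcript levels were measured by RNA sequencing of skeletal muscle from C57BL/6 mice (an inbred laboratory strain) with diet-induced obesity, 24 weeks of age. The liraglutide group received liraglutide, a GLP-1 receptor agonist used against diabetes and obesity, at 0.2 mg/kg under the skin each day for 9 weeks. The other group, called model, received saline. Each group had 8 mice, of which 4 were sequenced, and each library carries its own animal code. Both groups were obese, no lean group is among the libraries used here, and the labels do not name the muscle or the sex of the mice.

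In de novo lipogenesis, citrate leaves the mitochondrion and is split to acetyl-CoA, which is carboxylated to malonyl-CoA and built into palmitate, then elongated and desaturated. The pathway is most active in liver and fat, where insulin acts on it largely through SREBP-1c (encoded by Srebf1) and glucose through ChREBP (encoded by Mlxipl). In muscle fibres the main use of malonyl-CoA is as a brake on the entry of fatty acids into mitochondria, and fat cells lie between the fibres and along the fascia.

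Library totals were 17133476 to 18244579 counts with liraglutide and 15033631 to 16622716 in the model group. Muscle fibre markers dominated every library, with summed levels of 154304 to 169934 CPM (counts scaled to the library total) for 8 markers. The 13 mature adipocyte markers summed to 1749 to 2414 CPM with liraglutide and to 2598 to 3679 CPM in the model group, with no overlap. Transcripts of other organs were also present. Epididymis markers summed to 32.9 to 53.6 CPM in the model libraries. They were at 0.452 to 1.89 CPM in liraglutide 1, 3 and 4 and at 146 CPM in liraglutide 2, nearly all of it Crisp1. The liver gene Alb had 169 FPKM (fragments per kilobase of gene and per total of the library) in model 3 and at most 4.62 FPKM in the other 7 libraries. Results without liraglutide 2 and model 3 are therefore also given for Acly, Fasn, Scd1, Scd2, Thrsp and Srebf1. The fits relative to Adipoq were not run without this pair. Leaving out the pair keeps model 1, 2 and 4, with epididymis markers at 53.6, 32.9 and 42.8 CPM. The group difference in these markers therefore stays, and such fits cannot address it.

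Of the 10 lipogenesis genes, 8 had lower estimates with liraglutide and 2 had higher ones, with a median log2 fold change (liraglutide minus model) of -0.39 against -0.01 over all 12963 genes tested. Fasn, Scd1 and Scd2 had estimates of 0.412 to 0.526 of the model level, Acly and Acaca of 0.738 and 0.790, and Srebf1, Acacb and Mlxipl of 0.949 to 1.12. In 5 genes (Acly, Acaca, Fasn, Scd1 and Scd2) all 4 liraglutide libraries were below all 4 model libraries in FPKM. Of all tested genes 15.4% were. FPKM is scaled to library totals, without the scaling factors (TMM) of the test, and the narrow gap of Acaca depends on that choice. The quasi-likelihood test of edgeR with robust variance estimates, adjusted by the Benjamini-Hochberg method over all tested genes, called 1 of the 10 lower at an adjusted p under 0.05, which was Acly, and 0 higher (5 lower and 1 higher at an unadjusted p under 0.05; 0 higher by DESeq2). Over all genes 10.6% were called, 4.83% lower and 5.74% higher. Without the robust step 4 of the 10 were called lower (Acly, Fasn, Scd1 and Scd2), against 4.83% of all genes. DESeq2 called the same 4 (4.46% of all genes lower), and so did limma on log2(FPKM + 1) (8.04%). Adipoq fell as well. In bulk tissue fewer fat cells and less RNA per fat cell cannot be told apart.

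**Figure D1:**
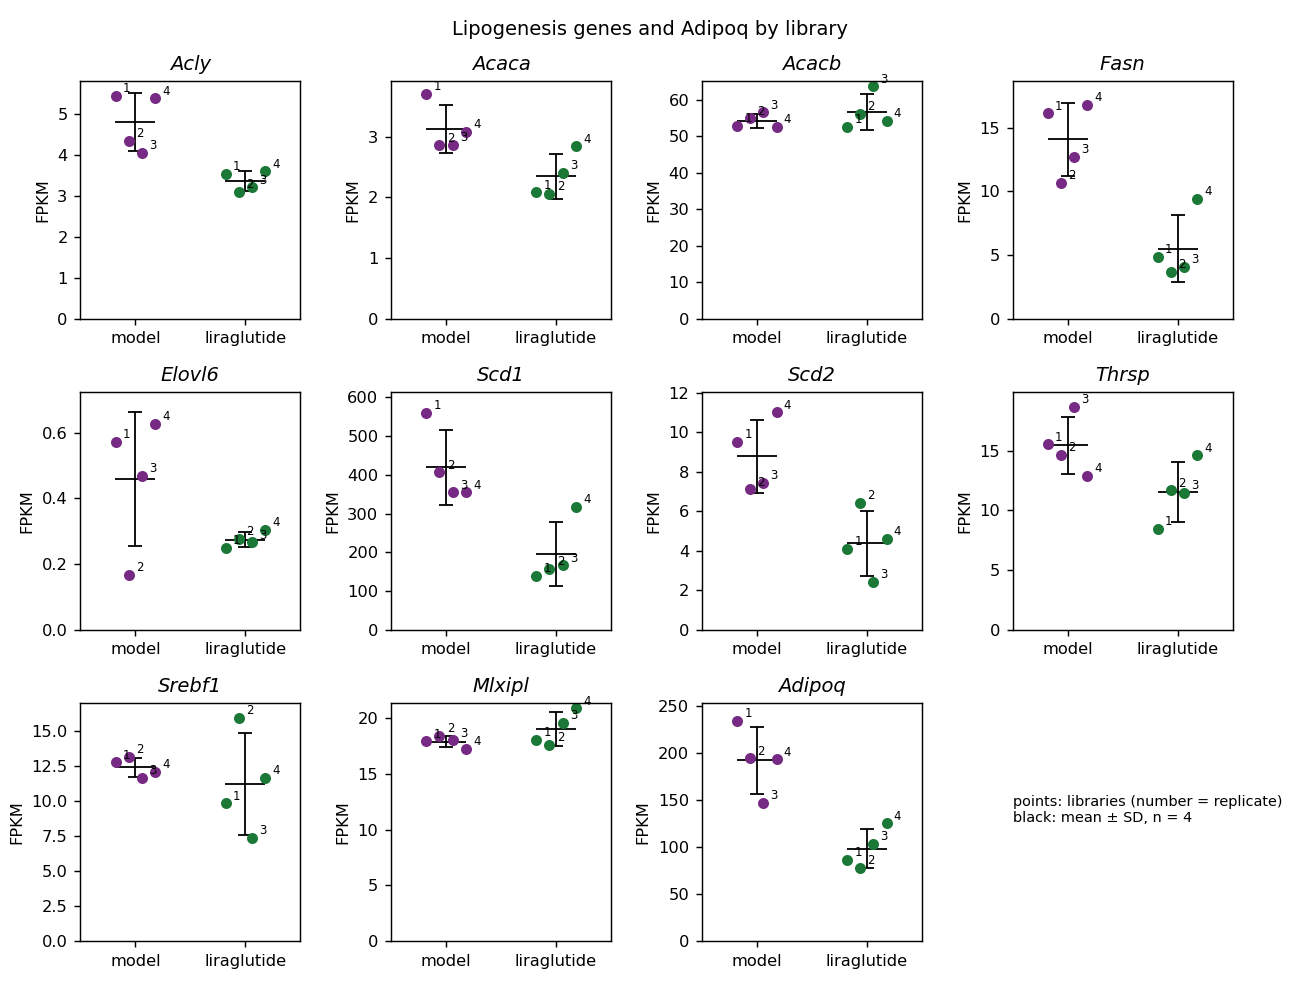
Level of each lipogenesis gene and of Adipoq in FPKM (y axis, from 0) in the 4 model and 4 liraglutide libraries; numbered points are libraries and black bars are means ± SD. Liraglutide points lie below every model point for Acly, Acaca, Fasn, Scd1, Scd2 and Adipoq, and overlap them for the other 5 genes.

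Promoter windows are shown for the gene with the lowest estimate (Fasn), the gene that was called (Acly) and a gene whose groups overlapped (Acacb). Each is the 250 bases before the annotated start in RefSeq (GRCm38.p6), on the gene's own strand, with matches to the searched motifs in capitals, in either orientation (ATTGG is the CCAAT box on the opposite strand). The Fasn window (chr11:120824548-120824797, minus strand) has 3 CCAAT matches, the binding sequence of NF-Y, a factor that acts beside SREBP. They begin 90, 62 and 59 bases before the start, and the last pair overlap as CCAATTGG. The Acly window (chr11:100528001-100528250, minus strand) has 4 GC boxes (GGGCGG, the sequence bound by Sp1), and the Acacb window (chr5:114165268-114165517, plus strand) has 1 CCAAT match.
Fasn: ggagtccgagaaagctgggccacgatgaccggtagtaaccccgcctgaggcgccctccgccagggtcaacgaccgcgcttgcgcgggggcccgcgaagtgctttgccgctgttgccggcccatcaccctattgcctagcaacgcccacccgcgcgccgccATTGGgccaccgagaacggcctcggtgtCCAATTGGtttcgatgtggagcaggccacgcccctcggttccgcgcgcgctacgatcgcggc
Acly: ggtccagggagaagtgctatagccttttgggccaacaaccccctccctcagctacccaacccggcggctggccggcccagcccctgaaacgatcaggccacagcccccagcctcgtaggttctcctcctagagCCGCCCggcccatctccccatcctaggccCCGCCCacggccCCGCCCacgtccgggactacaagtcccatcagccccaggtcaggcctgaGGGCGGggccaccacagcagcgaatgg
Acacb: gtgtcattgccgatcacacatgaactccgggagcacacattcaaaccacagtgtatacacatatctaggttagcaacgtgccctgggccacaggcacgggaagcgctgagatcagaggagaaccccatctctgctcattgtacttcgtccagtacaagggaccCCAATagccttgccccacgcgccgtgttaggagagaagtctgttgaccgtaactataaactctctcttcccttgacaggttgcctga

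The search covered both strands for the CCAAT box and the GC box as spelled out above, the E-box CACGTG, the sterol regulatory element TCACNCCAC, a paired E-box of the kind ChREBP binds and the LXR direct repeat. Over 32851 windows of the same length, 33.8% held CCAAT, 32.7% the GC box, 6.02% the E-box, 1.05% the sterol element, 0.639% the paired E-box and 0.0152% the LXR repeat. RefSeq windows were matched for 8 of the 10 genes, and those of Scd1 and Scd2 were not used here. Of the 3 windows printed, CCAAT occurred in 2 and the GC box in 1, and the other 4 motifs in none. Among the remaining windows, one of the 2 annotated Mlxipl starts had a sterol element 136 bases upstream, and the other, 17001 bases away, an E-box 98 bases upstream. Srebf1 has 3 annotated starts. The deposited values pool the transcripts of a gene, so SREBP-1a and SREBP-1c, or the forms of ChREBP, cannot be told apart.

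The pathway starts with ATP citrate lyase, encoded by Acly (Entrez gene 104112), which splits exported citrate to acetyl-CoA in the cytosol. Acly had 3.53, 3.10, 3.21 and 3.60 FPKM in liraglutide libraries 1 to 4 and 5.44, 4.34, 4.05 and 5.38 FPKM in model libraries 1 to 4. The groups did not overlap, and the model group fell into a high pair (1 and 4) and a low pair (2 and 3). Acly fell from 4.80 ± 0.713 to 3.36 ± 0.243 FPKM (SD, n = 4 per group), a log2 fold change of -0.44 ± 0.099 SE (95% interval -0.66 to -0.22, edgeR adjusted p = 0.0177). The call ended without model 1 (adjusted p = 0.0614) or without model 4 (0.0569), and held in the other 17 of 19 alternatives without a fat covariate, among them the fit without liraglutide 2 and model 3 (edgeR adjusted p = 0.0206).

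Acetyl-CoA carboxylase, which makes malonyl-CoA, has 2 forms. Acaca (Entrez gene 107476) encodes ACC1, the cytosolic form that feeds fatty acid synthesis. Its levels were 2.08, 2.06, 2.40 and 2.84 FPKM in liraglutide libraries 1 to 4 and 3.71, 2.85, 2.86 and 3.08 FPKM in model libraries 1 to 4. The groups were apart in FPKM by a narrow gap, with liraglutide 4 just under model 2. This separation depends on scaling to library totals, without TMM. The log2 fold change was -0.34 ± 0.119 SE (95% interval -0.60 to -0.08), which did not pass (edgeR adjusted p = 0.0990). In RefSeq Tada2a overlaps Acaca, and whether the authors' counting used strand is not given in the sources used here. Tada2a itself had a log2 fold change of -0.01 (edgeR adjusted p = 0.966).

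Acacb (Entrez gene 100705) encodes ACC2, the form tied to mitochondria, whose malonyl-CoA restrains fatty acid import by CPT1 in muscle and heart. It had 52.6, 56.1, 63.7 and 54.2 FPKM in liraglutide libraries 1 to 4 and 53.0, 54.9, 56.6 and 52.6 FPKM in model libraries 1 to 4. The groups overlapped, and liraglutide 3 was the only library above 56.6 FPKM. Its log2 fold change was 0.14 ± 0.064 SE (95% interval 0.00 to 0.28; edgeR adjusted p = 0.191). The interval leaves out a fall as large as the estimate of Acaca.

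Per length, ACC2 transcripts outnumbered ACC1 transcripts in every library. The Acacb to Acaca ratio of FPKM was 25.3, 27.3, 26.6 and 19.1 in liraglutide libraries 1 to 4 and 14.3, 19.2, 19.8 and 17.1 in model libraries 1 to 4. Liraglutide 4 was inside the model range and the other 3 were above it. The means were 24.6 ± 3.73 and 17.6 ± 2.50 (SD, n = 4), and the difference did not pass an exact permutation test (two-sided p = 0.0857; the smallest p that 4 against 4 libraries can give is 0.0286). Without liraglutide 4, the library that overlapped, the groups are apart and an exact p of 0.0286 follows by construction, so it is not read. With another library left out the exact permutation p was 0.0857 or 0.114, the latter without liraglutide 2 or 3 or model 1 or 4.

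Fatty acid synthase, encoded by Fasn (Entrez gene 14104), builds palmitate from malonyl-CoA and NADPH. Fasn had 4.84, 3.67, 4.10 and 9.42 FPKM in liraglutide libraries 1 to 4 and 16.1, 10.7, 12.7 and 16.8 FPKM in model libraries 1 to 4. The groups did not overlap, but liraglutide 4 lay nearer to model 2 than to its own group. Means were 5.51 ± 2.65 and 14.1 ± 2.89 FPKM (SD, n = 4), and the log2 fold change was -1.28 ± 0.343 SE (95% interval -2.11 to -0.45). Its edgeR adjusted p was 0.0684 with robust variance estimates, 0.0201 without them, and 0.00425 without liraglutide 4. Without liraglutide 2 and model 3 the log2 fold change was -1.17 (edgeR adjusted p = 0.197). Over 19 alternatives the log2 fold change of Fasn ran from -1.67 to -1.12 and the adjusted p from 0.00425 to 0.197, with a call in 6.

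The 5 genes outside this set with the highest Pearson r to Fasn (log2 CPM, 8 libraries) were Rufy4 at 0.993, Plekhh2 at 0.987, Stxbp5 at 0.982, Slc25a10 at 0.982 and Xiap at 0.981. These values describe likeness across 2 groups that differ in Fasn, so they carry the group difference. Slc25a10, the mitochondrial dicarboxylate carrier, had 1.84, 1.60, 1.41 and 3.04 FPKM in liraglutide libraries 1 to 4 and 4.89, 4.07, 4.34 and 6.497 FPKM in model libraries 1 to 4. It fell by 1.25 on the log2 scale (edgeR adjusted p = 0.0179). Rufy4 had only 6 to 22 counts per library.

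Elovl6 (Entrez gene 170439) encodes the elongase that takes palmitate to stearate. It was the lowest of the set at 0.250, 0.276, 0.266 and 0.304 FPKM in liraglutide libraries 1 to 4 and 0.573, 0.168, 0.469 and 0.627 FPKM in model libraries 1 to 4. The liraglutide values were tight, whereas model 2 was below all of them and the other 3 model libraries were above. These levels rest on 15 to 62 counts per library, and the log2 fold change of -0.67 ± 0.331 SE did not pass (edgeR adjusted p = 0.226). Over 19 alternatives it ran from -0.94 without model 2, the 1 alternative with a call (edgeR adjusted p = 0.0274), to -0.18 by limma on log2(FPKM + 1), and the highest adjusted p was 0.457, without model 4.

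Stearoyl-CoA desaturases introduce the double bond of oleate and palmitoleate. Scd1 (Entrez gene 20249), the main form in liver and fat, was the most abundant member per length, at 139, 157, 167 and 318 FPKM in liraglutide libraries 1 to 4 and 560, 406, 355 and 355 FPKM in model libraries 1 to 4. All liraglutide libraries were below the model libraries, but liraglutide 4 stood well above the other 3. The log2 fold change was -1.03 ± 0.316 SE (95% interval -1.79 to -0.26), with an edgeR adjusted p of 0.0995 with robust variance estimates, 0.0327 without them and 0.0114 without liraglutide 4. Without liraglutide 2 and model 3 the edgeR adjusted p was 0.257, the highest of 19 alternatives, of which 5 gave a call.

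Scd2 (Entrez gene 20250), a form found more widely and known in brain, had 4.10, 6.42, 2.43 and 4.59 FPKM in liraglutide libraries 1 to 4 and 9.52, 7.11, 7.45 and 10.999 FPKM in model libraries 1 to 4. Groups were apart here too, but the high liraglutide library was number 2, not number 4. The log2 fold change was -0.93 ± 0.290 SE (95% interval -1.62 to -0.24; edgeR adjusted p = 0.0983, and 0.0407 without robust variance estimates). It was -1.16 without liraglutide 2 (edgeR adjusted p = 0.0487) and -1.23 without liraglutide 2 and model 3 (adjusted p = 0.0728), and 4 of 19 alternatives gave a call, with adjusted p from 0.0256 to 0.197. The Scd1 to Scd2 ratio ran from 24.5 to 69.3 with liraglutide and from 32.2 to 58.8 in the model group, with wide overlap (exact permutation p = 0.886, two-sided). The 2 genes are close in sequence, and how the authors' counting treated reads that match both is not given in the sources used here.

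Thrsp (Entrez gene 21835) encodes Spot 14, a small protein that raises lipogenic flux and responds to thyroid hormone and carbohydrate. It had 8.46, 11.7, 11.5 and 14.6 FPKM in liraglutide libraries 1 to 4 and 15.5, 14.7, 18.7 and 12.9 FPKM in model libraries 1 to 4. The groups overlapped through liraglutide 4 and model 4. The log2 fold change of -0.34 ± 0.163 SE did not pass (95% interval -0.70 to 0.02, edgeR adjusted p = 0.216). Without liraglutide 2 and model 3 the log2 fold change was -0.23 (edgeR adjusted p = 0.511).

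Neither transcription factor passed the test. Srebf1 (Entrez gene 20787) had 9.83, 15.96, 7.38 and 11.7 FPKM in liraglutide libraries 1 to 4 and 12.8, 13.1, 11.7 and 12.1 FPKM in model libraries 1 to 4. The model libraries lay close together, and the liraglutide libraries spread to both sides of them, with a coefficient of variation of 32.3%. The log2 fold change was -0.08 ± 0.209 SE (95% interval -0.57 to 0.42; edgeR adjusted p = 0.866), an interval that still holds a fall by 0.57. Without liraglutide 2 and model 3 it was -0.31 (edgeR adjusted p = 0.268), and it turned to 0.08 without liraglutide 3 (adjusted p = 0.805). Rai1 overlaps Srebf1 in RefSeq and had a log2 fold change of 0.21 (edgeR adjusted p = 0.125).

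Mlxipl (Entrez gene 58805) had 18.1, 17.6, 19.6 and 20.9 FPKM in liraglutide libraries 1 to 4 and 17.9, 18.4, 18.02 and 17.3 FPKM in model libraries 1 to 4. Liraglutide 3 and 4 were above every model library and liraglutide 1 and 2 were among them. The log2 fold change was 0.16 ± 0.064 SE (95% interval 0.02 to 0.30), which did not pass after adjustment (edgeR adjusted p = 0.128).

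Set against Srebf1 library by library, 3 of the 9 other members had lower FPKM ratios in every liraglutide library than in any model library, where 1.59% of all tested genes did. These were Fasn, Scd1 and Scd2. Fasn had 0.230 to 0.807 FPKM per FPKM of Srebf1 with liraglutide and 0.814 to 1.39 in the model group. Scd1 had 9.85 to 27.3 against 29.3 to 43.8, and Scd2 had 0.329 to 0.417 against 0.541 to 0.910. Groups of 4 that do not overlap give an exact p of 0.0286 by construction, so no p is read from these 3. The ratios of the other 6 members to Srebf1 overlapped.

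For a like amount of Srebf1, Scd2 was lower in the liraglutide libraries than in the model libraries. The 4 liraglutide libraries stood in the same order for both genes (2, 4, 1, 3 from high to low). Shared orders of 4 libraries were also seen in this group for Acaca, Mlxipl and Adipoq (4, 3, 1, 2), for Fasn and Acly (4, 1, 3, 2) and for Elovl6 and Thrsp (4, 2, 3, 1). In the model group the order of Scd2 (4, 1, 3, 2) was shared with Fasn and Elovl6 and was not that of Srebf1 (2, 1, 4, 3). How often other tested genes share an order was not counted, so no relation is read from these orders.

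Set against Mlxipl, 6 of 9 members (Fasn, Acaca, Acly, Scd1, Scd2 and Thrsp) had ratios lower in every liraglutide library than in any model library, against 20% of all tested genes. Fasn had 0.208 to 0.450 FPKM per FPKM of Mlxipl with liraglutide and 0.580 to 0.974 in the model group, and Thrsp had 0.468 to 0.699 against 0.746 to 1.04. Acacb stayed level with Mlxipl, at 2.59 to 3.26 against 2.96 to 3.14 FPKM per FPKM (exact permutation p = 0.8, two-sided). Over the 8 libraries, a correlation with either factor could be tested for the 7 pairs whose groups overlapped in both genes, and none passed (adjusted permutation p of at least 0.579). The Pearson r largest in size was that of Srebf1 with Acacb, at -0.58 (exact permutation p = 0.158, adjusted 0.579), with Spearman rho = -0.17 (exact permutation p = 0.703, adjusted 0.840), and r was 0.25 without liraglutide 2 and 3, the libraries farthest from the median of Srebf1. The Spearman rho largest in size was that of Mlxipl with Elovl6, at -0.57 (exact permutation p = 0.151, adjusted 0.749), with r = -0.37 (exact permutation p = 0.366, adjusted 0.579), and r was -0.65 without liraglutide 3 and 4, the farthest for Mlxipl. For Srebf1 with Thrsp r went from 0.34 (exact permutation p = 0.414) to 0.73 without liraglutide 2 and 3.

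Adipoq (Entrez gene 11450) had 86.6, 77.9, 104 and 126 FPKM in liraglutide libraries 1 to 4 and 234, 194, 147 and 194 FPKM in model libraries 1 to 4. The groups did not overlap, and liraglutide 4 was again the highest of its group. Adipoq fell by 0.89 ± 0.196 SE on the log2 scale (edgeR adjusted p = 0.0348). This call ended in 9 of 19 alternatives, 6 of which left out 1 library (liraglutide 1, 2 or 3 or model 1, 2 or 4; adjusted p from 0.0676 to 0.0853). Across the members, liraglutide 4 was the highest of its group for 7 of 10 genes (Fasn, Acaca, Acly, Scd1, Elovl6, Thrsp and Mlxipl).

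**Figure D2:**
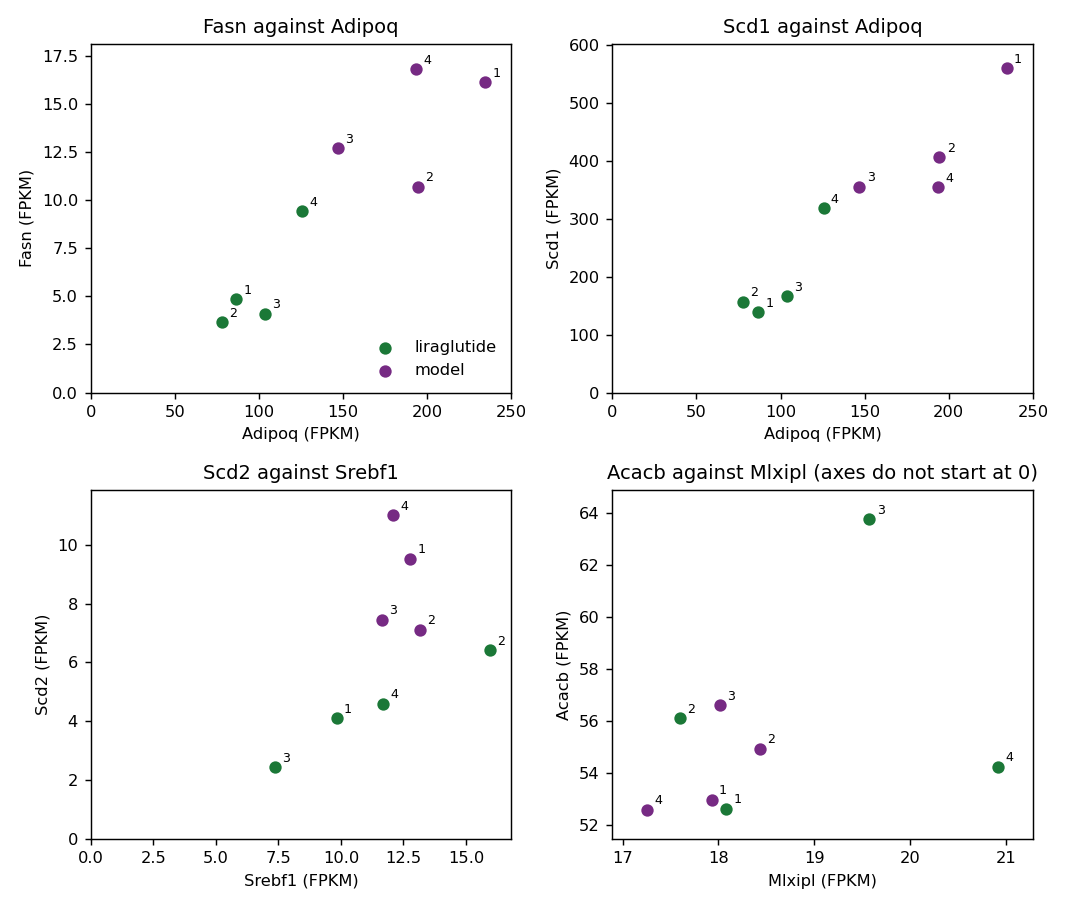
FPKM of a gene (y axis) against FPKM of another (x axis) in each library, for Fasn and Scd1 against Adipoq, Scd2 against Srebf1 and Acacb against Mlxipl; numbers are replicates, and the axes of the last panel do not start at 0. Fasn, Scd1 and Adipoq are all lower in the liraglutide libraries, with liraglutide 4 nearest the model libraries. Within the model group Fasn does not follow the order of Adipoq. Scd1 follows it except for model 3 and 4, which are almost level in Scd1 (355 and 355 FPKM). Scd2 is lower with liraglutide at a like level of Srebf1, and Acacb and Mlxipl overlap between groups.

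Per unit of Adipoq, the difference in Fasn was smaller and no longer separated the groups. Fasn had 55.9, 47.1, 39.5 and 75.0 FPKM per 1000 FPKM of Adipoq in liraglutide libraries 1 to 4 and 68.8, 55.0, 86.5 and 86.8 in model libraries 1 to 4 (exact permutation p = 0.143, two-sided). Liraglutide 3 had the lowest ratio, and liraglutide 1 and 4 were inside the model range. In an edgeR fit with the Adipoq count as library size the log2 fold change of Fasn was -0.45 (95% interval -0.90 to 0.00, adjusted p = 0.0596). The intervals and p-values of this fit are too small, because the error of Adipoq itself, shared by every gene, rests on the same 8 libraries.

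The desaturases and the elongase showed no detectable difference on this scale. Scd1 had 1606 to 2534 FPKM per 1000 FPKM of Adipoq with liraglutide and 1832 to 2417 in the model group (exact permutation p = 0.371; log2 fold change -0.17, 95% interval -0.62 to 0.29). Scd2 had 23.4 to 82.5 against 36.6 to 56.8 (exact permutation p = 0.8), the highest and the lowest both being liraglutide libraries. Elovl6 likewise overlapped (exact permutation p = 0.657).

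Ratios to Adipoq were higher in every liraglutide library than in any model library for 4 of 10 genes (Acly, Acaca, Acacb and Mlxipl), where 63.5% of all tested genes were, so the members' share is below that of all genes. Those of Thrsp and Srebf1 overlapped (exact permutation p = 0.114 and 0.0571, two-sided). Acly had 28.7 to 40.8 FPKM per 1000 FPKM of Adipoq with liraglutide and 22.3 to 27.8 in the model group. Acacb had 432 to 720 against 226 to 385, and Mlxipl had 167 to 226 against 76.5 to 123. For Acly and Acaca the liraglutide libraries were all below the model libraries in FPKM and all above them per unit of Adipoq. In the fit 5 of 10 members were called higher (Acaca, Acacb, Thrsp, Srebf1 and Mlxipl) and 0 lower, against 84.8% of all tested genes called higher and 0.509% lower, so that the members' count lies below the background.

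The scale used for fat content moved these calls. Scaled to the sum of the adipocyte markers, Fasn and Scd1 were called lower (log2 fold changes -0.76 and -0.50) and Acacb, Srebf1 and Mlxipl higher, where 0.957% of all genes were called lower and 57.5% higher. Scaled to Plin1, which encodes the coat protein of fat droplets, the same 3 were called higher, where 76.3% of all genes were, and 0 lower, where 0.494% were. With log2 Adipoq as a covariate in the fit, 0 members and 0 of 12963 genes were called by edgeR (1124 genes at an unadjusted p under 0.05), and with the marker sum as a covariate 0 members and 48 genes (0.37%) were called. Adipoq did not overlap between the groups, so that treatment and fat content cannot be told apart in such a fit.

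**Figure D3:**
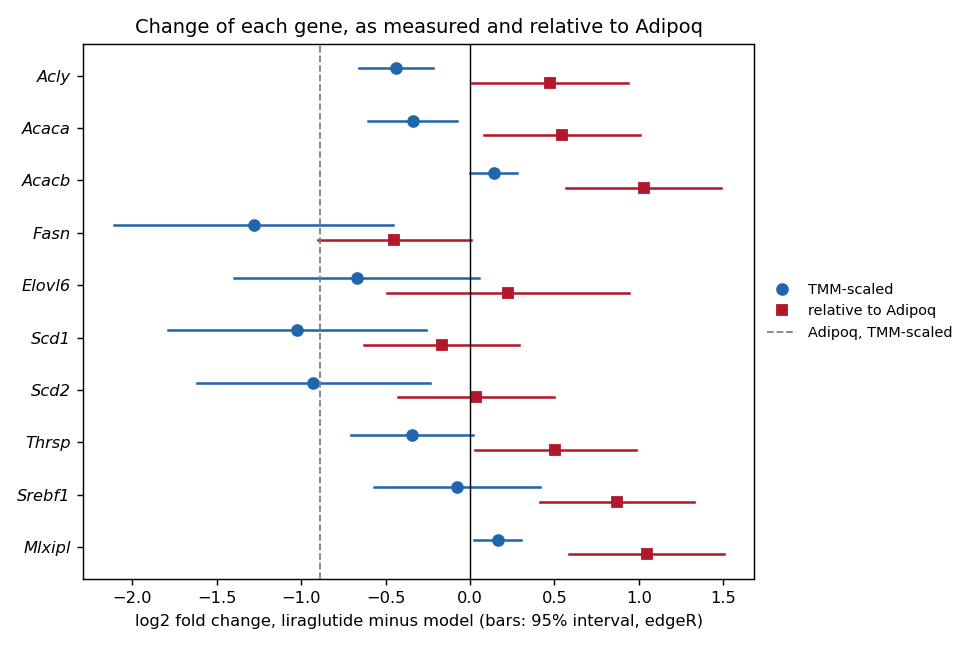
Log2 fold change, liraglutide minus model (x axis), of each gene (y axis), as measured with TMM scaling (circles) and relative to Adipoq (squares), with 95% intervals from edgeR; the dashed line marks Adipoq at -0.89. Fasn, Scd1 and Scd2 lie at or beyond the dashed line, Acacb and Mlxipl lie near 0 as measured and near 1 relative to Adipoq.

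Other genes of the pathway were followed by lists, to be read against the 4.83% of all genes called lower and the 5.74% called higher. Among 10 genes of carbon and NADPH supply, 4 fell and 0 rose, with a median log2 fold change of -0.29. Slc25a1, the mitochondrial citrate carrier that delivers the substrate of Acly, had 5.73, 4.67, 4.11 and 5.84 FPKM in liraglutide libraries 1 to 4 and 16.8, 10.2, 11.4 and 17.3 FPKM in model libraries 1 to 4. It showed the same high and low pairs in the model group as Acly, and fell by 1.38 ± 0.194 SE on the log2 scale (edgeR adjusted p = 0.00331). The cytosolic NADPH sources Idh1 (isocitrate dehydrogenase), Pgd and G6pdx (both of the pentose phosphate pathway) fell by 0.49, 0.44 and 0.66 (edgeR adjusted p = 0.00177, 0.0129 and 0.0276). Me1, malic enzyme, had a log2 fold change of -0.13 (edgeR adjusted p = 0.0785) and was named after its values were seen.

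Of 13 other elongation and desaturation enzymes 9 were tested, and 2 fell and 0 rose (median -0.02). Hsd17b12, which carries out the ketoreductase step of the elongation cycle, fell to 5.19 ± 1.12 FPKM against 9.97 ± 1.23 FPKM in the model group (SD, n = 4; log2 change -0.87, edgeR adjusted p = 0.00488). Hacd2, a dehydratase of the same cycle, fell from 1.09 ± 0.270 to 0.528 ± 0.075 FPKM (log2 fold change -0.97, edgeR adjusted p = 0.00929).

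Of 12 other SREBP-1c and ChREBP target genes 9 were tested, and 3 fell and 0 rose (median 0.02). Pnpla3, a lipid droplet protein induced by SREBP-1c, fell to 1.76 ± 0.622 FPKM against 5.37 ± 0.820 FPKM in the model group (SD, n = 4; log2 change -1.54, edgeR adjusted p = 0.00477). Dgat2 and Agpat2, which build triglyceride, fell by 0.78 and 0.75 (edgeR adjusted p = 0.00422 and 0.00381). All 3 had liraglutide libraries below every model library. Txnip, a ChREBP target that binds thioredoxin, had 284 ± 29.4 against 237 ± 32.6 FPKM (SD, n = 4) and a log2 fold change of 0.34, which did not pass (edgeR adjusted p = 0.0856) but was called higher by DESeq2.

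Of 11 genes that control or use malonyl-CoA, 1 fell and 3 rose (median 0.03). Cpt1a, the liver-type carnitine palmitoyltransferase, fell by 0.30 (edgeR adjusted p = 0.0177). Cpt1b, the muscle type, rose by 0.19, Mlycd, which degrades malonyl-CoA, by 0.29, and Stk11, the kinase upstream of AMPK, by 0.17 (edgeR adjusted p = 0.0316, 0.0300 and 0.0289). Each of these rises lost its call in 9 to 13 of 19 alternatives.

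Among 18 regulators of lipogenic transcription, 1 fell and 1 rose (median 0.14), a share near that of all genes in both directions. Sp1, the GC-box factor, fell by 0.24 (edgeR adjusted p = 0.0338) and Nr1h2, which encodes LXR beta, rose by 0.26 (adjusted p = 0.0405). These calls ended in 10 and 12 of 19 alternatives. Insig1, which retains SREBP in the endoplasmic reticulum and is itself an SREBP target, was named after its values were seen. It had 5.01, 5.13, 3.54 and 9.72 FPKM in liraglutide libraries 1 to 4 and 15.7, 12.4, 11.8 and 16.8 FPKM in model libraries 1 to 4. Liraglutide 4 was the highest of its group here too, and the log2 fold change of -1.20 did not pass (edgeR adjusted p = 0.0546, and 0.0193 without robust variance estimates).

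**Figure D4:**
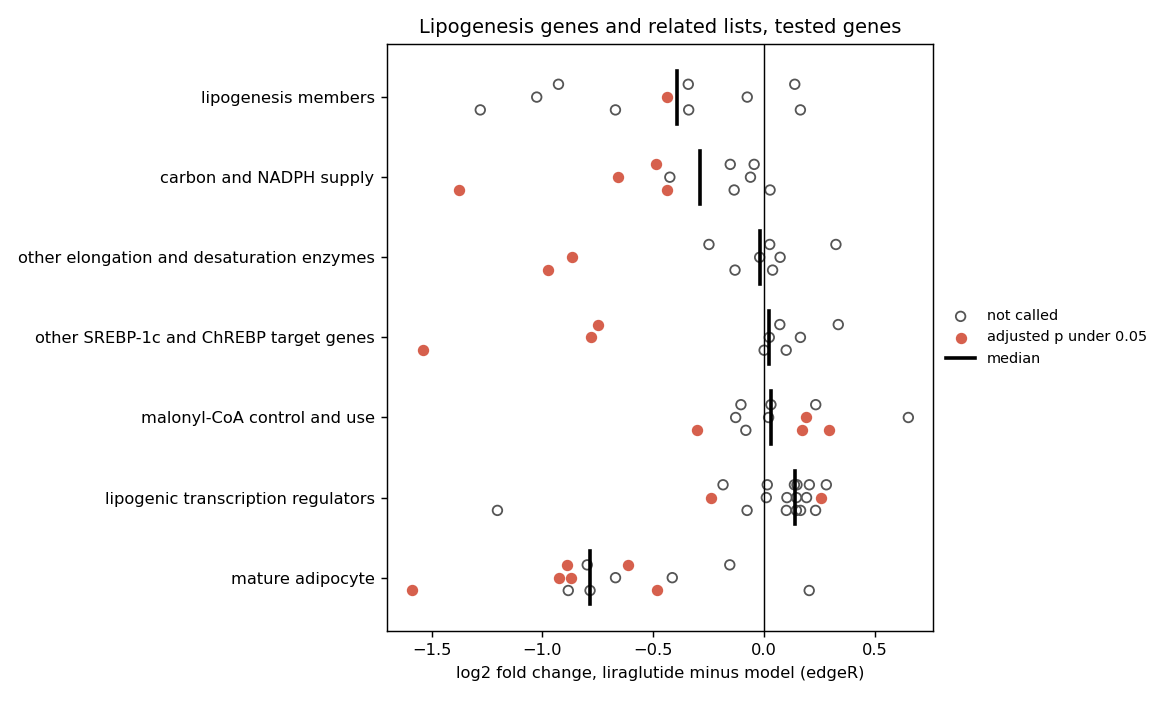
Log2 fold change, liraglutide minus model (x axis), of each tested gene in the lipogenesis set and in 6 related lists (y axis); filled points have an edgeR adjusted p under 0.05 and bars are list medians. The medians are -0.39 for the lipogenesis set, -0.29 for carbon and NADPH supply, -0.79 for mature adipocyte markers and within -0.02 to 0.14 for the other 4 lists.

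Of 13 mature adipocyte markers 6 fell and 0 rose, with a median log2 fold change of -0.79. Lep, the leptin gene, fell by 1.59 (edgeR adjusted p = 0.0126), Trarg1 by 0.93 and Slc7a10 by 0.87 (adjusted p = 0.0126 and 0.0154). The other 7 markers were not called, though 12 of the 13 had negative estimates. Cfd went the other way, with a log2 fold change of 0.20, and that of Plin4 was only -0.15. For both genes the groups overlapped in FPKM. Of 8 muscle fibre markers 3 rose and 0 fell (Ckm by 0.30, Acta1 by 0.24 and Mb by 0.25; edgeR adjusted p = 0.00106, 0.00196 and 0.0344), though the call of Mb ended in 11 of 19 alternatives. The markers of fibro-adipogenic progenitors, the stromal cells that give rise to fat in muscle, summed to 185 to 262 CPM with liraglutide and 298 to 338 CPM in the model group, and 2 of 5 fell (Dpt by 0.58 and Dpp4 by 0.39; edgeR adjusted p = 0.0133 and 0.0427, the latter call ending in 11 of 19 alternatives). Their part in the differences of the lipogenesis genes was not tested.

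Of 7 epididymis markers 6 fell and 0 rose. Adam7 had at most 0.111 FPKM with liraglutide and 1.63 to 3.001 FPKM in the model group (edgeR adjusted p = 0.000299). Lcn5 and Lcn8 had 0 counts in 2 liraglutide libraries each. Fat lies around the epididymis, so the 2 lists are given side by side, and whether the adipocyte transcripts of the model libraries share a source with these was not tested. In the other 6 lists 0 genes were called by the edgeR test as reported, and DESeq2 called 1 lower, in the macrophage list. Among the genes named from these lists, Cd163 gained a call in 6 of 19 alternatives, Pecam1 in 3 and Otop1 in 1. Alb, Prx and Krt10 gained a call in 0. The 7 Schwann cell markers summed to 90.6 to 138 CPM with liraglutide and 106 to 119 CPM in the model group, with 0 at an unadjusted p under 0.05 and Prx the nearest (edgeR adjusted p = 0.497). The 5 macrophage markers summed to 102 to 178 and 150 to 179 CPM, with 3 lower at an unadjusted p under 0.05, Cd163 among them (adjusted p = 0.0831). The 4 endothelial markers summed to 212 to 239 and 235 to 282 CPM, with 1 lower at that level, Pecam1 (edgeR adjusted p = 0.150). Of 4 brown adipocyte markers 3 were tested and summed to at most 6.62 CPM, with 1 lower at that level, Otop1 (edgeR adjusted p = 0.0823). Of 6 hepatocyte markers 2 were tested, with 0 at that level (Alb, edgeR adjusted p = 0.221). The 5 skin markers summed to at most 1.92 CPM with Krt1 at 0 in every library, and the 1 tested, Krt10, had an edgeR adjusted p of 0.855.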

How the data were processed

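Per the labels' protocols, RNA was isolated with TRIzol and libraries were prepared with a stranded mRNA kit. The deposited table gives a raw count and an FPKM value per gene and library, per the file headers. Tools named by the submitters' processing notes are HISAT2, HTSeq, Cufflinks, DESeq and Trimmomatic, without versions, and the build GRCh38, which is a human one although the samples are mouse; no gene coordinates of the files were used. FPKM equalled the deposited count divided by gene length and library total, with a whole length to within 0.01 base for 17484 of the 17484 genes with counts.

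Counts were tested with edgeR 4.0.16 (R 4.3.3; TMM scaling, filterByExpr with a minimum count of 10, quasi-likelihood test with robust variance estimates, group as the only term), which left 12963 genes; all 10 members passed the filter. A call is a Benjamini-Hochberg adjusted p under 0.05 over these genes, and the biological coefficient of variation was 13.7%. A further fit used the Adipoq count of each library as its effective size. Ratios per library used exact two-sided permutation tests (scipy 1.17.1). The fit was tested on simulated data. Alternatives were no robust variance estimates (added after the data were seen), RLE and raw scaling, no filter, DESeq2 1.42.0, limma 3.58.1 on log2(FPKM + 1) and log2(FPKM + 0.1), length and GC offsets (loess span 0.5; GC known for 98.3% of genes), the replicate number as a block, omission of libraries, and fat content as covariate or scale.

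The members and lists were chosen with earlier results of these data known. Named genes are the members, Adipoq, up to 3 called genes per direction with the smallest p from each list (or 1 where none was called), and the 5 genes most like Fasn. G6pdx, Insig1, Me1, Txnip, Crisp1, Plin1, Plin4, Cfd and the overlapping genes Tada2a and Rai1 were named after their values were seen.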

Additional observations from a re-analysis of the deposited data

Results flagged for a closer look

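Within-group spread was checked for 46 groups of 4 libraries (each gene's FPKM and each ratio to Adipoq, with the isoform ratios), and in 2 of them the library at an end lay far from the rest by Dixon's 95% criterion, where chance gives about 1 in 20. Scd1 stood at 318 FPKM in liraglutide 4, against 139 to 167 FPKM in the other 3 libraries of that group. The same library was the highest of its group for Fasn, at 9.42 FPKM, and for Adipoq, at 126 FPKM. The ratio of Thrsp to Adipoq stood at 127 FPKM per 1000 FPKM of Adipoq in model 3, against 66.2 to 75.4 in the other 3 model libraries; model 3 had the highest Thrsp and the lowest Adipoq of the model group.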

How the results depend on the processing

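Members called lower were 1 by the test as reported, and 4 without robust variance estimates, 4 by DESeq2, 4 and 3 by limma on log2(FPKM + 1) and log2(FPKM + 0.1), 2 with raw library sizes, 2 with the replicate block, 0 to 4 with 1 library left out, and 0 with Adipoq or the marker sum as a covariate; 0 members were called higher in any of these. Deviations from the group mean correlated at 0.15, -0.03, 0.14 and 0.06 between same-numbered libraries (numbers 1 to 4). Between libraries of different number the correlations ran from -0.19 to 0.14. These small values do not settle whether the libraries were paired. The numbers were not taken as pairs, and the replicate block is given as an alternative. Direction turned for Srebf1 with libraries left out (log2 fold change -0.314 to 0.0822), for Acaca with Adipoq (0.20) or the marker sum (0.0492) as a covariate, and for Scd1 with Adipoq as a covariate (0.0270).

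Relative to Adipoq, 5 members were called higher and 0 lower; scaling to the marker sum gave 3 and 2, scaling to Plin1 3 and 0, the replicate block 3 and 0, and leaving out 1 library 3 to 6 and 0 to 1. On that scale Scd2 went from 0.04 to -0.33 with the marker sum, -0.0481 with Plin1, -0.0925 with the block and -0.37 to 0.26 with libraries left out, and Elovl6 from 0.22 to -0.14 with the marker sum and -0.0549 to 0.40 with libraries left out. The mean log2 ratio of Acacb to Acaca differed by 0.48 (0.38 to 0.60 with libraries left out) and that of Scd1 to Scd2 by -0.10 (-0.31 to 0.19). The cause of these shifts was not tested. Counts limit Elovl6 (15 to 62 per library), and 4 libraries per group limit every test.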
